A study of Mus musculus with 8 samples.

Results

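The 10 genes described here are transcription factors that set and maintain the identity of the distal lung epithelium: Nkx2-1, Foxa1, Foxa2, Gata6, Cebpa, Sox9, Foxp1, Foxp2, Elf3 and Grhl2. They were chosen by symbol from the deposited count table, which has 52459 symbols, and all 10 were among the 14085 genes with enough counts to test. RNA was sequenced from lung tumour nodules of the mouse model labelled KrasTrp53, on a mixed background, in 4 groups of 2 libraries. The nodules came from mice given the combination of the BET bromodomain inhibitor JQ1 and an anti-PD-1 antibody, JQ1 alone, anti-PD-1 alone, or vehicle. JQ1 displaces BET proteins from acetylated histones, and the antibody blocks PD-1, a receptor that restrains T cells. The labels give no dose, duration, age or Cre driver, and every group carries the same tumour model. They do not say whether the libraries of a group came from separate animals, so the p-values cover the spread between these libraries only, and some of it may be technical.

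NKX2-1 is the homeodomain factor that specifies the lung field in the embryo and later sustains surfactant genes in alveolar type 2 cells. FOXA1 and FOXA2 are forkhead pioneer factors that open chromatin in endoderm and share many sites with NKX2-1, and GATA6 and CEBPA act with them in alveolar differentiation. In mouse lung tumours that lose Nkx2-1, genes of stomach and intestine are known to become active at sites bound by FOXA1 and FOXA2.

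Promoter sequence is shown for the factors that the comparisons below turn on and that have a RefSeq entry on GRCm38.p6: Nkx2-1 and Foxa1, which fell with JQ1 over both backgrounds, Foxa2 and Cebpa, their partners in alveolar cells, and Elf3, which stood on the opposite side. Of the 10 factors, 6 had an entry. Each stretch begins 250 bases before the RefSeq start and runs 5′ to 3′ along the gene's strand, up to the start or to the first base of an exon annotated in GENCODE vM21. Capitals mark matches, on either strand, to any of 7 motifs: the forkhead motif TGTTTAC, the NKX2-1 core CAAGTG, the CCAAT box CCAAT, the grainyhead palindrome AACCGGTT, the TATA box TATAAA, the MYC E-box CACGTG and the C/EBP motif TTGCNNAA. No matches overlapped in these windows. The stretches lie at chr12:56536909-56537158 for Nkx2-1, chr12:57546122-57546361 for Foxa1, chr2:148046970-148047219 for Foxa2, chr7:35119043-35119292 for Cebpa and chr1:135258569-135258722 for Elf3. That of Cebpa is on the plus strand and the others are on the minus strand.
Nkx2-1: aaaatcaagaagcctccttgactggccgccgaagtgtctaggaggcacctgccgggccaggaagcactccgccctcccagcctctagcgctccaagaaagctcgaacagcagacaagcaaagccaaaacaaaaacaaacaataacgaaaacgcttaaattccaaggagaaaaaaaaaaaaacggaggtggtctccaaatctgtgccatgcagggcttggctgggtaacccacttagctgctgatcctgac
Foxa1: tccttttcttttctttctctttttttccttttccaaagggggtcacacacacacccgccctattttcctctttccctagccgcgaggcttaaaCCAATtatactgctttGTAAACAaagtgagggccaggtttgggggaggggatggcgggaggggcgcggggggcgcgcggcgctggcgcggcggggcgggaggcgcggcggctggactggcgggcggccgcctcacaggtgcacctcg
Foxa2: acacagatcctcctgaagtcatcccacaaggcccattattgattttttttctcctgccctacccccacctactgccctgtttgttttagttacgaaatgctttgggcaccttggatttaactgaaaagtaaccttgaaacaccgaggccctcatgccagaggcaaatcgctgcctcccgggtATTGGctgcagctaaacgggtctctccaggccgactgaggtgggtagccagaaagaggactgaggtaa
Cebpa: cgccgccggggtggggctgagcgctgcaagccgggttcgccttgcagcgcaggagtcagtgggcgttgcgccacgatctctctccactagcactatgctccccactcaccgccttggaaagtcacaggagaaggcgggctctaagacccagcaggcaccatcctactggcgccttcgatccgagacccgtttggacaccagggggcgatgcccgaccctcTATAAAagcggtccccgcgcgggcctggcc
Elf3: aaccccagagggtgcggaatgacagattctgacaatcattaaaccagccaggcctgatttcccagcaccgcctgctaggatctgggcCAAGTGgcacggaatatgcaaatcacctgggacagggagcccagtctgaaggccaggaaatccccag
The Nkx2-1 stretch held no match. The Foxa1 stretch held a forkhead match, which 3.17% of 32851 windows of 250 bases before a RefSeq start also hold, and a CCAAT box, which 33.8% hold. RefSeq gives 3 starts for Foxa2, and the stretch shown lies before the one farthest upstream. It held a CCAAT box beginning 68 bases before that start. Of the other Foxa2 windows, not shown, the middle one held no match and the most downstream one a TATA box beginning 208 bases before its start. The Cebpa stretch held a TATA box at 30 bases before the start, a motif found in 12.4% of windows. The Elf3 stretch held the NKX2-1 core, found in 11.6% of windows. Those windows have 250 bases and the Elf3 stretch only 154, so that share is not a like comparison. The rest of the Elf3 window, not shown, held a CCAAT box beginning 93 bases before the start. A match describes letters and is no evidence of binding.

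The groups differed in composition as well as in treatment. Total counts ranged between 2719816 in combination replicate 1 and 15224108 in vehicle replicate 2. The lincRNA Gm42418, which overlaps ribosomal RNA sequence, took 43.9% ± 4.71 of the counts with the combination, 26.1% ± 5.33 with JQ1, 20.6% ± 0.207 with anti-PD-1 and 19.8% ± 1.21 in vehicle (SD, n = 2 each). Protein-coding genes took 44.9% ± 3.72, 63.5% ± 5.16, 72.5% ± 0.423 and 73.4% ± 1.15 in the same order of groups. This share moved with the JQ1 groups, as did several factors below. The part of depth in the results was not tested. Levels are CPM, read counts scaled to a common library size, adjusted by TMM factors. Where a factor is lower in bulk tissue, fewer cells of a type and less RNA per cell cannot be told apart.

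All 10 factors had counts in every library, with Nkx2-1 the most abundant per length of exon. In vehicle nodules, levels in CPM per kilobase of annotated exon were 677 for Nkx2-1, 281 for Cebpa, 66.7 for Foxa2, 38.6 for Foxp1 and 28.1 for Foxa1. The remaining levels were 15.7 for Foxp2, 11.2 for Sox9, 9.51 for Grhl2, 4.73 for Gata6 and 3.71 for Elf3. Probes captured coding regions only, which limits a comparison of levels between genes with long untranslated exons. Of 25 genes of alveolar type 2 cells, none was at 0 in any library, and their summed level lay between 7435 and 14996 CPM. The lists of alveolar type 1, endothelial and macrophage genes also had none at 0, so this does not identify the tissue.

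Nkx2-1 was lower wherever JQ1 was given and lowest with the combination. It is a gene of 3 annotated exon blocks on the minus strand of chromosome 12 (56531958 to 56536908, GRCm38). Its level was 841 and 401 CPM with the combination, 1042 and 1201 CPM with JQ1, 1657 and 1558 CPM with anti-PD-1, and 2120 and 1731 CPM in vehicle. No 2 groups overlapped, and the 4 groups stood in that order in every library. Of the neighbours in this order, the combination and JQ1 did not differ past the threshold, nor did anti-PD-1 and vehicle, and JQ1 and anti-PD-1 were not compared with each other.

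Against vehicle, Nkx2-1 fell 3.10-fold with the combination (log2 fold change -1.63, SE 0.34, edgeR quasi-likelihood test, Benjamini-Hochberg adjusted p = 0.0327). It was the only factor of the 10 called in this comparison at an adjusted p of 0.05, where 4.8% of all tested genes were called and 2.36% were called lower. Nkx2-1 was also lower with the combination than with anti-PD-1 alone (log2 fold change -1.37, SE 0.34, edgeR adjusted p = 0.0496) and was the sole factor called there, against 4.23% of all genes and 2.08% called lower. Against anti-PD-1, 7 factors had an unadjusted p below 0.05 (27% of all genes), 8 lay below it in both libraries (26.8%), and Elf3 lay above (27.9%). The call against vehicle ended without combination replicate 2, where the log2 fold change was -1.18 and the edgeR adjusted p was 0.101, and without either vehicle library (adjusted p = 0.198 and 0.174). Without combination replicate 1, the shallowest library, the log2 fold change was -2.26 with an adjusted p of 0.0121. It also ended without anti-PD-1 replicate 1 or 2 (adjusted p = 0.0557 and 0.0556) and in a fit of only the libraries compared (0.0613). By Xist and Y-linked counts each treated group holds 1 female library and vehicle 0, and with a term for sex the edgeR adjusted p was 0.0518. Refitted on protein-coding genes alone, which leaves out Gm42418, the log2 fold change against vehicle was -1.60 (adjusted p = 0.0376). The call against anti-PD-1 ended without any library but combination replicate 1, with edgeR adjusted p of up to 0.18, and with protein-coding genes alone (0.0595), upper-quartile factors (0.0705), a minimum mean count of 50 (0.0595), a sex term (0.0636) or only the libraries compared (0.0987).

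JQ1 alone gave intermediate Nkx2-1 values with no call. Its log2 fold change against vehicle was -0.78 (SE 0.33, edgeR adjusted p = 0.478), and that of the combination against JQ1 was -0.85 (SE 0.34, adjusted p = 0.305). The fit of JQ1 over both backgrounds sets the 4 libraries with JQ1, alone or in the combination, against the 4 without it. There Nkx2-1 fell 2.11-fold (log2 fold change -1.08, SE 0.24, edgeR adjusted p = 0.0304), and all 4 libraries with JQ1, between 401 and 1201 CPM, lay below all 4 without, between 1558 and 2120 CPM. Either combination library could be left out of that fit with the call intact (adjusted p = 0.0124 and 0.0461), while leaving out any of the other 6 ended it, with adjusted p between 0.0581 and 0.12. These comparisons share vehicle, JQ1 and combination libraries with those above.

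**Figure D1:**
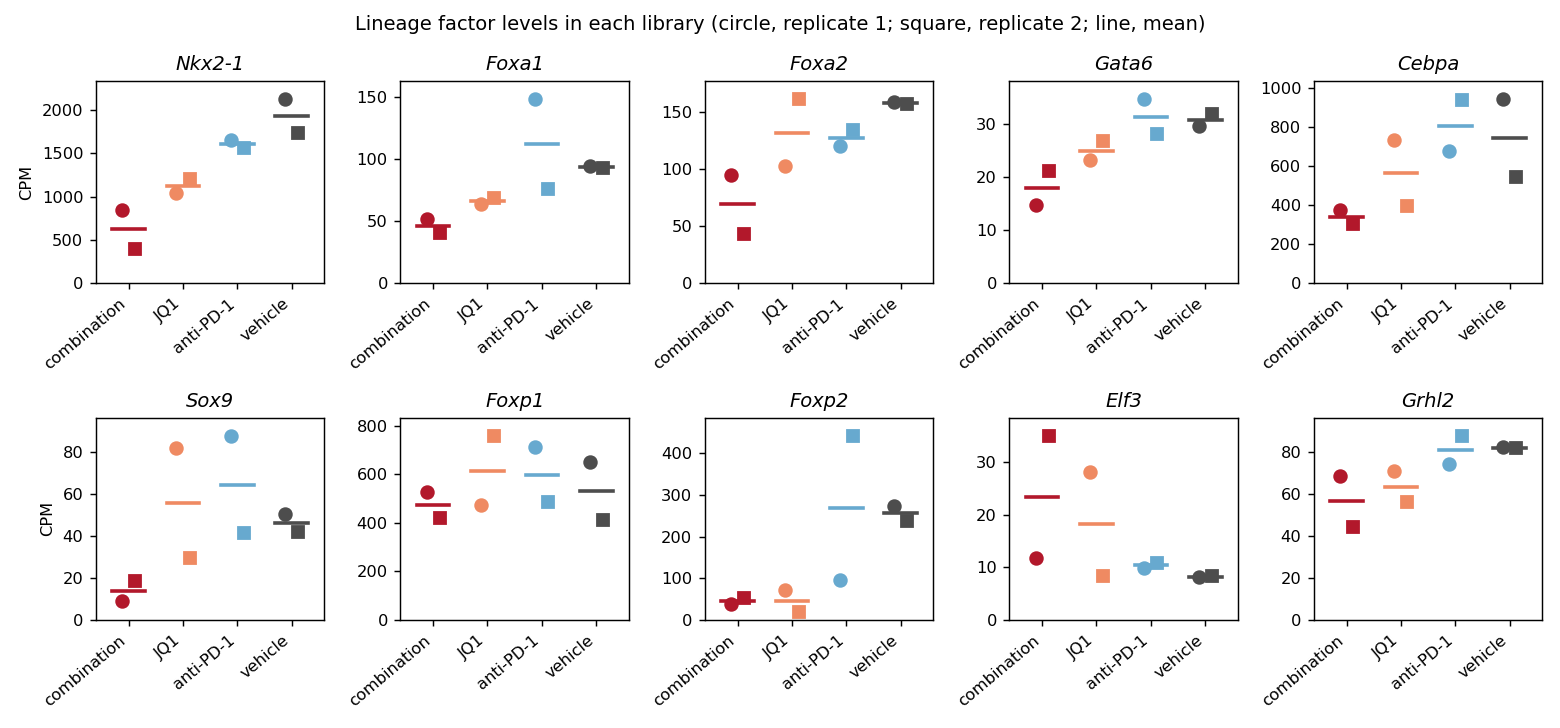
Level of each lineage factor in CPM (vertical axes, each starting at 0) in the 8 libraries by treatment group. Circles are replicate 1, squares replicate 2 and lines the mean of the group. Nkx2-1 is at 401 and 841 CPM with the combination, against 1731 and 2120 CPM in vehicle, while Foxp1 overlaps between these groups.

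The forkhead factors Foxa1 and Foxa2 were lower with the combination, and Foxa1 passed the test for JQ1 over both backgrounds. Foxa1 (chromosome 12, 57540628 to 57546916, GRCm38) was at 51.7 and 40.1 CPM with the combination, 63.6 and 68.7 CPM with JQ1, 148 and 75.9 CPM with anti-PD-1, and 94.4 and 92.3 CPM in vehicle. All 4 libraries with JQ1 lay below all 4 without it, and anti-PD-1 replicate 1 stood high. Foxa1 fell 1.86-fold with JQ1 over both backgrounds (log2 fold change -0.89, SE 0.23, edgeR adjusted p = 0.0433). The call stayed only when combination replicate 1 was left out (adjusted p = 0.0421). Each of the other 7 libraries ended it when left out, with adjusted p between 0.0539 and 0.144, as did upper-quartile factors (0.0617), a minimum mean count of 50 (0.0582) and a sex term (0.0776). With the combination against vehicle the log2 fold change was -1.03 (SE 0.33, edgeR adjusted p = 0.087), and against anti-PD-1 it was -1.29 (SE 0.33, adjusted p = 0.0553).

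Foxa2, whose loss in the mouse lung disturbs alveolar maturation, passed no test in the edgeR fit reported here. Its level (chromosome 2, 148042877 to 148046969, GRCm38) was 95.0 and 43.6 CPM with the combination, 103 and 161 CPM with JQ1, 120 and 134 CPM with anti-PD-1, and 159 and 157 CPM in vehicle. Both combination libraries were below every other library, and the JQ1 libraries spanned the vehicle level. The log2 fold change of the combination was -1.20 against vehicle (SE 0.37, edgeR adjusted p = 0.0777) and -0.95 against JQ1 (SE 0.37, adjusted p = 0.301).

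Gata6 and Cebpa averaged lowest with the combination and next lowest with JQ1, without a call. Gata6, a zinc-finger factor of endoderm, was at 14.7 and 21.1 CPM with the combination, 23.2 and 26.7 CPM with JQ1, 34.6 and 28.03 CPM with anti-PD-1, and 29.7 and 31.9 CPM in vehicle. The libraries with JQ1 all lay below those without it, but combination replicate 1 rests on 35 counts. Its log2 fold change was -0.77 for the combination against vehicle (SE 0.30, edgeR adjusted p = 0.141) and -0.55 for JQ1 over both backgrounds (SE 0.21, adjusted p = 0.113). Cebpa, a leucine-zipper factor needed for type 2 cell maturation in mice, is a gene of 1 exon on chromosome 7 (35119293 to 35121928, GRCm38). It was at 374 and 305 CPM with the combination, 732 and 398 CPM with JQ1, 678 and 937 CPM with anti-PD-1, and 942 and 542 CPM in vehicle. Only the combination stood clear of vehicle, where both libraries differed widely. The log2 fold change of the combination was -1.13 against vehicle (SE 0.37, edgeR adjusted p = 0.0905) and -1.25 against anti-PD-1 (SE 0.37, adjusted p = 0.0751).

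Sox9 marks the progenitors at the tips of the growing airway tree. It was lowest in both combination libraries and passed no test in the edgeR fit reported here. DESeq2 called it for the combination against JQ1. It was at 8.82 and 18.4 CPM with the combination, 81.9 and 29.7 CPM with JQ1, 87.6 and 41.4 CPM with anti-PD-1, and 50.5 and 41.9 CPM in vehicle. These combination levels rest on 21 and 112 counts, and the other 3 groups overlapped. The log2 fold change of the combination was -1.71 against vehicle (SE 0.56, edgeR adjusted p = 0.0961), -1.98 against JQ1 (SE 0.57, adjusted p = 0.194) and -2.20 against anti-PD-1 (SE 0.57, adjusted p = 0.0605). For Sox9 the effect of JQ1 with the antibody differed by -2.47 on the log2 scale from its effect without it (SE 0.77, unadjusted p = 0.0103 by edgeR, adjusted p = 0.745). That was the only factor of the 10 with an unadjusted p below 0.05 in this test of the difference, where 6.25% of all tested genes were below 0.05 and 0 were called.

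Foxp2 and its relative Foxp1, forkhead repressors active together in developing airway and alveolar epithelium, gave a call for Foxp2 and none for Foxp1. Foxp2 (chromosome 6, 14901349 to 15441977, GRCm38) was at 39.5 and 52.0 CPM with the combination, 71.4 and 19.9 CPM with JQ1, 96.2 and 441 CPM with anti-PD-1, and 273 and 239 CPM in vehicle. Each of the 4 libraries with JQ1 lay below each of the 4 without it, and the anti-PD-1 libraries were far apart. Foxp2 fell 5.72-fold with JQ1 over both backgrounds (log2 fold change -2.52, SE 0.56, edgeR adjusted p = 0.0414). With JQ1 alone against vehicle the log2 fold change was -2.49 (SE 0.79, adjusted p = 0.443), and with the combination it was -2.48 (SE 0.80, adjusted p = 0.104). The call over both backgrounds stayed without JQ1 replicate 1 (log2 fold change -3.12, adjusted p = 0.0295) and without anti-PD-1 replicate 1 (-2.88, adjusted p = 0.0377). It ended without any of the other 6, and without anti-PD-1 replicate 2 the log2 fold change was -1.78 (adjusted p = 0.0748). It also ended without a filter on low counts (adjusted p = 0.137). Foxp1 (chromosome 6, 98925338 to 99522721, GRCm38) was at 526 and 422 CPM with the combination, 472 and 757 CPM with JQ1, 710 and 487 CPM with anti-PD-1, and 649 and 412 CPM in vehicle. All 4 groups overlapped, and the log2 fold change of the combination against vehicle was -0.16 (SE 0.33, edgeR adjusted p = 0.778). Its exons share 435 bases with other annotated genes on the same strand.

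Elf3 was the one factor with a higher mean than vehicle in every treated group and both combination libraries above both vehicle libraries, without a call. ELF3 is an epithelium-specific ETS factor (chromosome 1, 135253575 to 135258568, GRCm38). It was at 11.8 and 34.9 CPM with the combination, 28.1 and 8.44 CPM with JQ1, 9.90 and 10.8 CPM with anti-PD-1, and 8.08 and 8.36 CPM in vehicle. A single library of each JQ1 group carried the difference, and the other lay nearer to vehicle. JQ1 replicate 2 was above both vehicle libraries by a small margin in CPM, but in the authors' deposited normalized values it was at 76.4, against 75.5 and 77.6 in vehicle. The log2 fold change was 1.54 for the combination against vehicle (SE 0.60, edgeR adjusted p = 0.144) and 1.15 for JQ1 against vehicle (SE 0.59, adjusted p = 0.524). Leaving out single libraries moved the value for the combination between 0.53 and 2.08. Grhl2, a grainyhead factor that controls epithelial junction genes (chromosome 15, 37233036 to 37363569, GRCm38), was at 68.5 and 44.4 CPM with the combination, 70.7 and 55.9 CPM with JQ1, 74.1 and 87.4 CPM with anti-PD-1, and 82.2 and 81.7 CPM in vehicle. Its libraries with JQ1 lay below those without it by a small margin, and the log2 fold change of the combination against vehicle was -0.55 (SE 0.29, edgeR adjusted p = 0.242). Exons of Elf3, Cebpa, Grhl2 and Gata6 overlap antisense genes by 162, 51, 169 and 93 bases, and the sources used here give no strand setting for the counting.

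**Figure D2:**
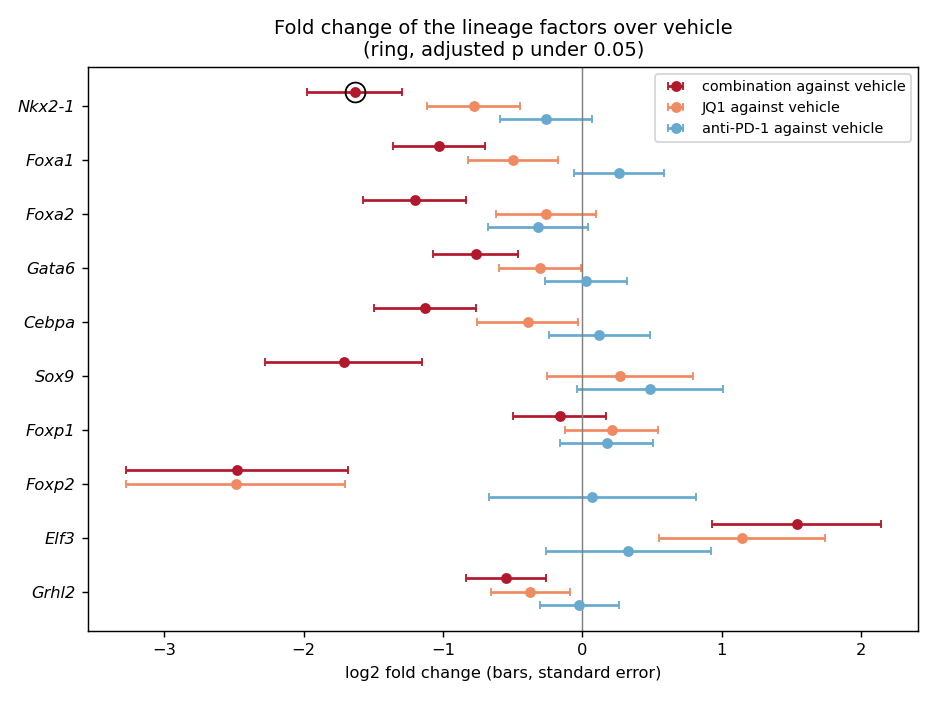
Log2 fold change over vehicle (horizontal axis) of each lineage factor with the combination, JQ1 or anti-PD-1, with bars for the standard error. A ring marks an adjusted p under 0.05: Nkx2-1 with the combination, at -1.63. The combination lies left of 0 for 9 of the 10 factors and right of 0 for Elf3, at 1.54.

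Across the 10 factors, the combination gave a median log2 fold change against vehicle of -1.08, beside 0.07 over all tested genes. Both combination libraries lay below both vehicle libraries for 8 factors, a pattern shown by 29.1% of all tested genes, and above them for Elf3, a pattern shown by 29.5%. Unadjusted p was below 0.05 for 8 of the 10, against 27.3% of all tested genes. JQ1 alone gave a median of -0.34 against 0.07 over all genes, with 5 factors below vehicle in both libraries (23% of all genes) and 1 above (26.3%). No factor was called with JQ1 alone by edgeR, where 0% of all genes were. Nkx2-1 and Foxp2 had an unadjusted p below 0.05, as did 10.1% of all genes, DESeq2 called 1 factor (Foxp2), and limma voom called 0.

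Anti-PD-1 alone gave no call among the factors. The median log2 fold change was 0.10, beside -0.00 over all genes, and edgeR called 0 of the 10 factors and 0% of all genes. At an unadjusted p below 0.05 the count was 0 factors, against 1.97% of all genes, and DESeq2 and limma voom called 0 each. Nkx2-1 and Foxa2 were below vehicle in both libraries (16% of all genes) with log2 fold changes of -0.26 (SE 0.33) and -0.31 (SE 0.36), and Elf3 was above (14.4%) at 0.33 (SE 0.59). With 2 libraries a side, such standard errors leave changes of this size not detectable.

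For JQ1 over both backgrounds edgeR called 3 of the 10 factors, Nkx2-1, Foxa1 and Foxp2, all lower, where 8.28% of all genes were called and 4.05% were called lower. The median over the factors was -0.70, beside 0.06 over all genes. Nkx2-1, Foxa1, Gata6, Foxp2 and Grhl2 were lower in all 4 libraries with JQ1 than in all 4 without it, a pattern of 9.37% of all tested genes, and 0 were higher in all 4 (10.2%). In all, 9 factors had an unadjusted p below 0.05, against 31.7%. The combination against JQ1 alone gave 0 calls by edgeR, where 0.0213% of all genes were called. In that comparison Nkx2-1, Foxa2 and Sox9 had an unadjusted p below 0.05, against 14.1% of all genes, 6 factors lay below JQ1 in both libraries (21.3%), DESeq2 called Sox9, and limma voom called 0. The test for any difference among the 4 groups called none of the 10 by edgeR, against 0.596% of all genes, with the smallest adjusted p for Nkx2-1 (0.0885). DESeq2 called 5 of the factors in it.

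The factors were also set against 28 epithelial genes counted in the same libraries. The list holds junction and adhesion genes, such as Cdh1 and Epcam, and also keratins. With JQ1, where the sum averaged 3053 CPM, Krt7, Krt8, Krt19 and Krt18 averaged 681, 563, 535 and 172 CPM. Cdh1 averaged 189 CPM there and Epcam 36.1 CPM, so the ratios below weigh keratin RNA heavily. Cdh1 and Epcam were themselves called higher for JQ1 over both backgrounds, as given below. Summed, the 28 genes were at 2383 and 2682 CPM with the combination, 3734 and 2373 CPM with JQ1, 2136 and 3043 CPM with anti-PD-1, and 3175 and 2680 CPM in vehicle, so the groups overlapped. Per 1000 counts of these genes, Nkx2-1 had 353 and 149 counts with the combination, 279 and 506 with JQ1, 776 and 512 with anti-PD-1, and 668 and 646 in vehicle. The combination libraries stayed below the vehicle libraries, and the mean was 251 ± 144 with the combination, against 657 ± 15.8 in vehicle (SD, n = 2 each). On the same scale Cebpa had 157 and 114 counts with the combination, against 297 and 202 in vehicle, and Foxp2 had 16.6 and 19.4 with the combination, against 86.0 and 89.0 in vehicle. Elf3 had 4.94 and 13.0 with the combination, against 2.55 and 3.12 in vehicle. Foxa1, Foxa2, Gata6 and Sox9 also stayed below vehicle in both combination libraries on this scale. Grhl2 did not, with 28.7 and 16.6 counts with the combination, against 25.9 and 30.5 in vehicle, and Foxp1 averaged slightly above vehicle with the combination (log2 ratio of means 0.08). The separation of all 4 libraries with JQ1 from all 4 without it held for Nkx2-1 and Foxp2. It was lost for Grhl2, for Foxa1 (29.0 in JQ1 replicate 2, against 24.96 in anti-PD-1 replicate 2) and for Gata6 (11.3 in JQ1 replicate 2, against 9.2 in anti-PD-1 replicate 2). Ratios to this list do not depend on the Gm42418 share of a library.

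**Figure D3:**
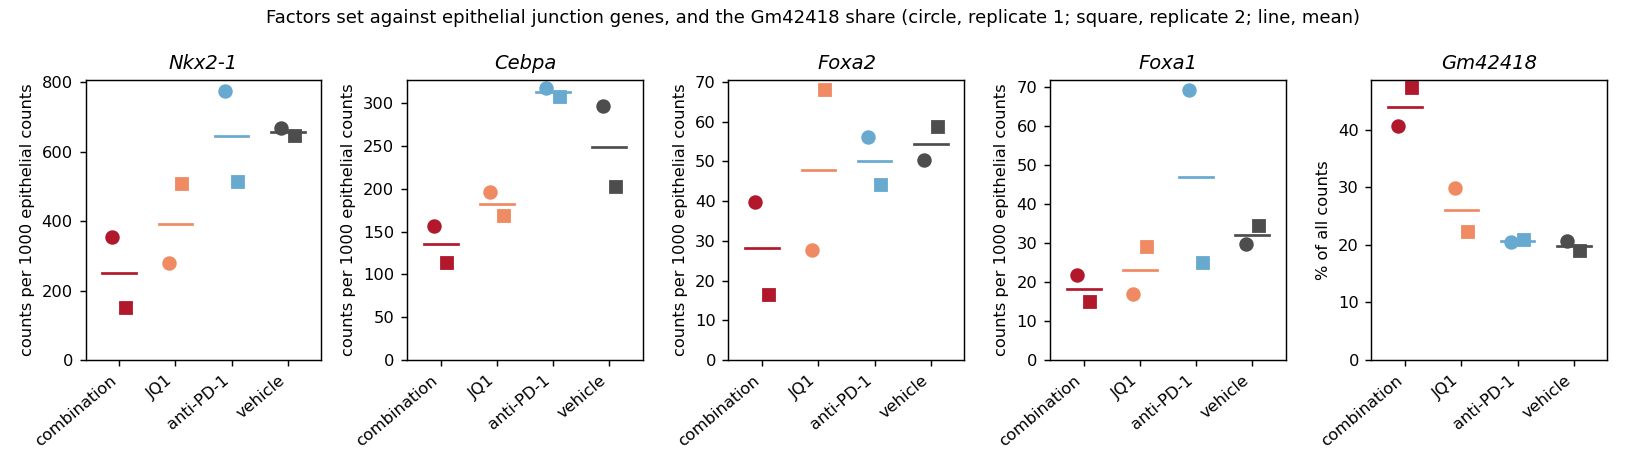
Counts of Nkx2-1, Cebpa, Foxa2 and Foxa1 per 1000 counts of 28 epithelial junction and keratin genes, and the share of Gm42418 in percent of all counts (vertical axes), by treatment group. Circles are replicate 1, squares replicate 2 and lines the mean. Nkx2-1 averages 251 with the combination, against 657 in vehicle, while Gm42418 averages 43.9% with the combination, against 19.8% in vehicle.

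Alveolar type 2 genes, many of them known targets of NKX2-1, FOXA and CEBPA, had calls in both directions. Of 25 tested with the combination against vehicle, 2 rose and 1 fell, and the median log2 fold change was 0.18. Over all tested genes 4.8% were called in this comparison, and counts for the lists below are to be read beside that share. With JQ1 alone 0 were called by edgeR, 3 had an unadjusted p below 0.05 and the median was -0.46. Napsa, an aspartic protease that processes surfactant protein B, was at 150 and 211 CPM with the combination, 154 and 119 CPM with JQ1, 73.2 and 86.0 CPM with anti-PD-1, and 88.3 and 46.7 CPM in vehicle. It rose with the combination (log2 fold change 1.42, SE 0.34, edgeR adjusted p = 0.0447), as did the calcium-binding protein gene S100g (1.98, SE 0.44, adjusted p = 0.0378). Etv5, an ETS factor that maintains type 2 cells in mice, fell (-1.89, SE 0.43, adjusted p = 0.0411). Cldn18, a tight junction claudin of the lung, fell for JQ1 over both backgrounds (-0.86, SE 0.23, edgeR adjusted p = 0.0458). When the 8 libraries were left out in turn, the calls held in 3 of 8 fits for Napsa and Etv5 and in 2 of 8 for S100g and Cldn18.

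The surfactant genes themselves were picked out after their values were seen. Sftpc was at 2000 and 3249 CPM with the combination, 1508 and 453 CPM with JQ1, 1851 and 1594 CPM with anti-PD-1, and 2379 and 1153 CPM in vehicle. Vehicle overlapped each treated group, while both combination libraries lay above the JQ1 and anti-PD-1 libraries, and JQ1 lay below anti-PD-1. The log2 fold change of Sftpc with the combination against vehicle was 0.57 (SE 0.55, edgeR adjusted p = 0.526). The corresponding values were 0.36 for Sftpb (SE 0.35, adjusted p = 0.531), 0.18 for Sftpa1 (SE 0.47, adjusted p = 0.827) and 0.92 for Sftpd (SE 0.34, adjusted p = 0.125).

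Among genes of other epithelial fates, the intestinal gene Gpa33 and the airway gene Scgb1a1 rose with the combination. Of 18 tested stomach and intestinal genes, 1 rose and 1 fell with the combination, at a median log2 fold change of 0.72, where 4.8% of all tested genes were called. With JQ1 alone the median was 1.74, with 17 of the 18 above 0, against 7579 of all 14085 tested genes. EdgeR called 0 of them, and 7 had an unadjusted p below 0.05. Both JQ1 libraries lay above both vehicle libraries for 10 of the 18, against 26.3% of all tested genes. The JQ1 libraries were uneven: the list summed to 1162 CPM in replicate 1 and 501 CPM in replicate 2, against 353 and 312 CPM in vehicle. Gkn1 was at 66.5 and 0.348 CPM and Krt20 at 65.0 and 6.44 CPM in the JQ1 libraries. Gpa33, an intestinal surface antigen, was at 21.0 and 32.4 CPM with the combination, 19.6 and 34.4 CPM with JQ1, 7.74 and 6.47 CPM with anti-PD-1, and 5.72 and 5.50 CPM in vehicle. It rose with the combination (log2 fold change 2.26, SE 0.39, edgeR adjusted p = 0.0226) and for JQ1 over both backgrounds (2.09, SE 0.27, adjusted p = 0.00943). Krt20, a keratin of differentiated gut epithelium, rose for JQ1 over both backgrounds (4.40, SE 0.94, adjusted p = 0.0397). Vil1, which encodes the brush border protein villin, fell with the combination (-1.63, SE 0.38, adjusted p = 0.0413). With single libraries left out, Gpa33 stayed called in 5 of 8 fits with the combination and in 6 of 8 over both backgrounds, Vil1 in 4 of 8 and Krt20 in 2 of 8.

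Over 11 tested airway genes the median log2 fold change was 1.59 with JQ1 alone and 0.79 with anti-PD-1 alone. With anti-PD-1, 8 of them lay above 0 and 3 below, and none was called. There 3 had an unadjusted p below 0.05 by edgeR, in either direction, against 1.97% of all genes. With the combination the median was 2.64 and 1 gene rose. That gene was Scgb1a1, the secretoglobin of club cells, at 305 and 244 CPM with the combination, 77.8 and 22.4 CPM with JQ1, 87.2 and 21.2 CPM with anti-PD-1, and 5.34 and 3.49 CPM in vehicle (log2 fold change 5.96, SE 0.89, edgeR adjusted p = 0.0244). Both combination libraries were above all others. Of 14 alveolar type 1 genes 1 fell, Vegfa (-1.36, SE 0.30, adjusted p = 0.0361), which encodes an endothelial growth factor, and the median was 0.14. Scgb1a1 stayed called in 5 of 8 fits with a library left out, and Vegfa in 3 of 8.

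Of the 28 junction and keratin genes, targets of grainyhead factors among them, Spint1 rose with the combination (log2 fold change 1.12, SE 0.28, edgeR adjusted p = 0.0493), and the median was -0.07. With any of the 8 libraries left out, that call of Spint1 was lost. For JQ1 over both backgrounds, where 8.28% of all genes were called, 4 rose: Spint1 (1.14, SE 0.20, adjusted p = 0.0185), Marveld3 (1.11, SE 0.30, adjusted p = 0.0475), Epcam (0.98, SE 0.25, adjusted p = 0.0431) and Cdh1 (0.84, SE 0.19, adjusted p = 0.0332). They encode a membrane protease inhibitor, a tight junction protein and a pair of adhesion molecules. Of 9 tested genes of epithelial to mesenchymal transition 1 fell with the combination, the intermediate filament gene Vim (-1.27, SE 0.32, edgeR adjusted p = 0.048). Zeb2, a repressor of epithelial genes, fell for JQ1 over both backgrounds (-0.90, SE 0.23, adjusted p = 0.0431). Over both backgrounds Spint1 stayed called in 4 of 8 fits with a library left out, Cdh1 in 2 of 8, and Marveld3, Epcam and Zeb2 in 1 of 8. Vim with the combination stayed called in 2 of 8.

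**Figure D4:**
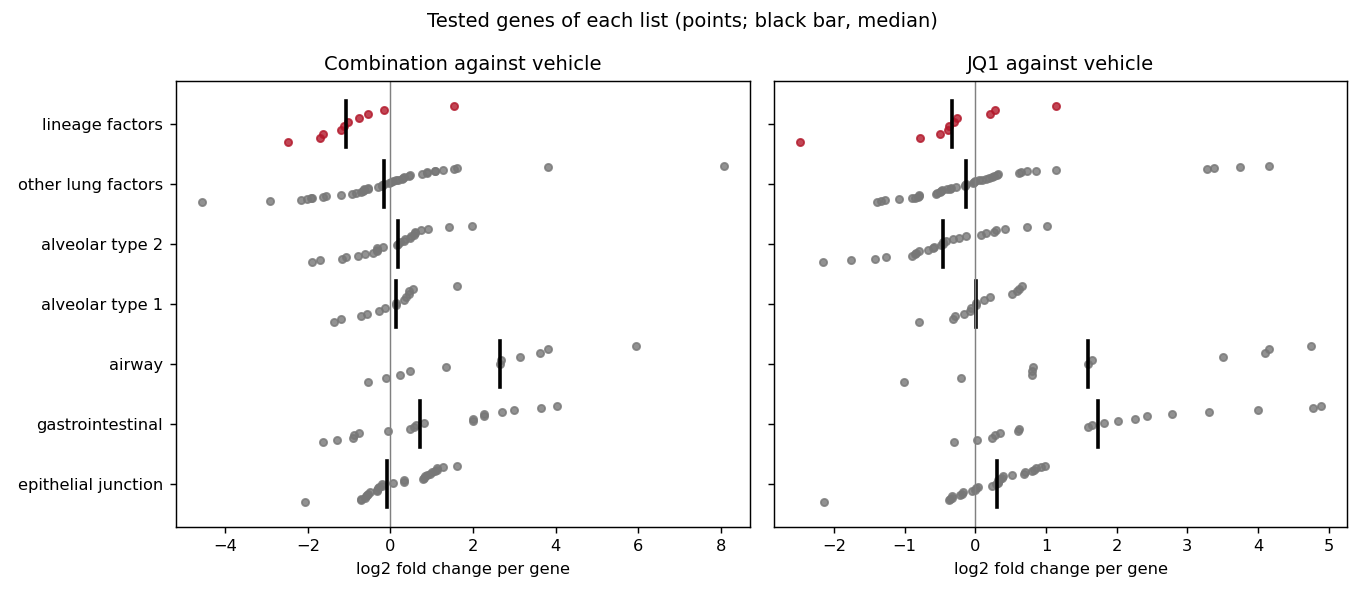
Log2 fold change (horizontal axes) of every tested gene of 7 lists (rows) with the combination against vehicle, left, and with JQ1 against vehicle, right. Points are genes and black bars list medians. With the combination the lineage factors have a median of -1.08, and alveolar type 2 genes one of 0.18.

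Among 41 other tested transcription factors of lung development, 1 rose and 3 fell with the combination, at a median log2 fold change of -0.15. Id2, an inhibitor of basic helix-loop-helix factors expressed in distal tip progenitors, was at 67.2 and 49.4 CPM with the combination, 238 and 265 CPM with JQ1, 215 and 234 CPM with anti-PD-1, and 483 and 392 CPM in vehicle. It fell with the combination (log2 fold change -2.91, SE 0.28, edgeR adjusted p = 0.00712), and both combination libraries were below all others. Mycn, which drives growth of the distal tip, was at 5.04 and 0.658 CPM with the combination, 18.9 and 40.2 CPM with JQ1, 73.2 and 42.0 CPM with anti-PD-1, and 45.4 and 61.9 CPM in vehicle. It fell as well (-4.57, SE 0.78, adjusted p = 0.0276), and Etv5, given above, is the third. Sox2, the factor of proximal airway epithelium, was at 39.5 and 19.2 CPM with the combination, 2.30 and 0 CPM with JQ1, 4.39 and 0.750 CPM with anti-PD-1, and 0 and 0.172 CPM in vehicle, where it had 3 counts in all. It rose with the combination (edgeR adjusted p = 0.0447). With single libraries left out, Id2 stayed called in 7 of 8 fits, Mycn in 5 of 8 and Sox2 in 2 of 8.

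Of 13 tested paralogues of the 10 factors, Cebpg, a dimerization partner of other C/EBP proteins, was the one called with the combination. Cebpg was at 41.2 and 55.1 CPM with the combination, 22.4 and 26.4 CPM with JQ1, 16.7 and 15.2 CPM with anti-PD-1, and 13.3 and 15.6 CPM in vehicle. It rose (log2 fold change 1.74, SE 0.30, edgeR adjusted p = 0.0226), so Cebpa and Cebpg lay on opposite sides of vehicle. Gata5, an endodermal relative of Gata6, was called higher for JQ1 over both backgrounds (edgeR adjusted p = 0.0436). It was at 1.26 and 1.81 CPM with the combination and 9.21 and 0.348 CPM with JQ1, against 0.279 and 0.281 CPM with anti-PD-1 and 0.153 and 0.115 CPM in vehicle. The JQ1 values rest on 88 and 4 counts. Near 0 without JQ1, Gata5 passed the filter on low counts through libraries with JQ1, so the direction of this call is no separate support. Cebpg stayed called in 5 of 8 fits with a library left out, and Gata5 in 1 of 8.

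Summed levels of some marker lists of other cell types also differed between the groups. Summed CPM of 8 smooth muscle genes was 65.5 and 105 with the combination, 133 and 163 with JQ1, 301 and 218 with anti-PD-1, and 305 and 335 in vehicle. Acta2 and Des weigh most in it, at means of 87.7 and 31.5 CPM with JQ1. With JQ1 alone, 3 of the 7 tested genes lay above 0 and the median log2 fold change was -0.06. With the combination 1 of the 7 lay above 0, at a median of -0.50. Summed CPM of 8 striated muscle genes, of which 5 were tested, was 142 and 69.1 with the combination, 253 and 330 with JQ1, 580 and 322 with anti-PD-1, and 535 and 391 in vehicle. This sum is mostly 1 gene: Myh6 alone was at 242 and 325 CPM with JQ1, where the next highest, Tnnt2, averaged 2.93 CPM. It therefore describes Myh6 and not muscle cells as such. With the combination, Acta2 (log2 fold change -2.44, SE 0.43, edgeR adjusted p = 0.0261) and Myh6 (-2.18, SE 0.40, adjusted p = 0.0279) fell, and Des and Acta1 fell for JQ1 over both backgrounds (-1.24 and -2.56). The Acta1 levels with JQ1 alone rest on 18 and 9 counts. Summed levels of 12 fibroblast genes were 721 and 1121 CPM with the combination, 1572 and 1187 CPM with JQ1, 2620 and 1568 CPM with anti-PD-1, and 1899 and 1772 CPM in vehicle. Fn1 and Col1a1 weigh most in this sum, at means of 652 and 509 CPM with JQ1. With the combination 5 of the 11 tested fibroblast genes lay above 0 and 6 below, at a median of -0.18. Of these genes Col1a1 fell with the combination (-1.92, SE 0.30, edgeR adjusted p = 0.0178), while Dcn (2.58, SE 0.49, adjusted p = 0.0293) and Pdgfra (2.02, SE 0.45, adjusted p = 0.0378) rose. With single libraries left out, Acta2, Myh6, Col1a1 and Dcn stayed called in 5 of 8 fits, Acta1 in 4 of 8, Pdgfra in 2 of 8 and Des in 0 of 8.

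Endothelial genes ran the other way: 15 genes, none at 0 in any library, summed to 321 and 363 CPM with the combination, 300 and 269 CPM with JQ1, 261 and 256 CPM with anti-PD-1, and 160 and 223 CPM in vehicle. Of these Flt1 (log2 fold change 1.15, SE 0.28, edgeR adjusted p = 0.0462) and Pecam1 (1.74, SE 0.42, adjusted p = 0.0467) rose with the combination, and Egfl7 and Cldn5 rose for JQ1 over both backgrounds (1.11 and 1.70). Flt1 and Cldn5 stayed called in 2 of 8 fits with a library left out, Egfl7 in 1 of 8 and Pecam1 in 0 of 8. The 15 macrophage genes summed to 292 and 541 CPM with the combination, 322 and 247 CPM with JQ1, 419 and 357 CPM with anti-PD-1, and 486 and 335 CPM in vehicle. The combination overlapped every other group, while JQ1 lay below anti-PD-1 and vehicle. Fabp4 rose for JQ1 over both backgrounds (1.94, SE 0.40, edgeR adjusted p = 0.0282). It had the highest value of the list, of which 8 genes lay above 0 and 7 below there, at a median of 0.03. The 9 neutrophil genes summed to 12.6 and 3.78 CPM with the combination, against 2.90 and 2.41 CPM in vehicle. S100a8 rose for JQ1 over both backgrounds (3.46, SE 0.71, edgeR adjusted p = 0.0278). Its values with JQ1 alone rest on 21 and 18 counts, and the 9 genes together had 38 and 42 counts in vehicle. At levels this low the direction of the S100a8 call is no separate support. Fabp4 and S100a8 each stayed called in 3 of 8 fits with a library left out. The 12 genes of T and B cells were near 0, at 0.42 to 4.81 CPM over all libraries. The 5 mesothelial genes summed to 266 and 379 CPM with the combination, 726 and 411 CPM with JQ1, 207 and 485 CPM with anti-PD-1, and 487 and 380 CPM in vehicle. Both combination libraries lay below both vehicle libraries, by a small margin for combination replicate 2. Only 2 of these 5 genes were tested, and none was called. The list includes the keratin gene Krt19, which is also among the junction genes above. Krt19 alone was at 686 and 385 CPM in the JQ1 libraries, so the sum mostly follows an epithelial keratin and describes mesothelium poorly. The part of these cell types in the lower levels of the lineage factors was not tested.

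The 5 genes whose pattern over the 8 libraries was nearest to that of Nkx2-1, by root mean square difference of centred log2 CPM among 6850 genes, were Fchsd2 (0.156), Syncrip (0.158), Rbm10 (0.169), Hnrnph1 (0.175) and Sept7 (0.190). Syncrip, Rbm10 and Hnrnph1 encode RNA-binding proteins, Fchsd2 a membrane-bending adaptor and Sept7 a septin. By the same measure Foxa2 was the nearest of the other factors, at 0.284 and rank 84 among the tested genes, followed by Foxa1 at 0.382 and rank 399. Elf3 was the farthest, at 1.41. Since the same libraries and depths enter every gene, these distances describe and test nothing.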

How the data were processed

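RNA of 8 lung tumour nodule libraries was extracted from frozen tissue and captured with coding-region probes (TruSeq RNA Access), per the labels' protocols. The submitters' processing notes list STAR, featureCounts, bcl2fastq and DESeq2 and the builds mm10 and GRCm38. No version, annotation or strand setting is given in the sources used here. The raw table deposited by the authors holds raw read counts by gene symbol, as whole numbers. The normalized table deposited by the authors holds a signal, the counts divided by 1 factor per library, and gave back whole reads for at least 99.99% of values in each library. The test rerun on those recovered reads called the same numbers of factors (1 with the combination, 3 for JQ1 over both backgrounds). Nearly all of these are the same reads, so the rerun could hardly differ and is no separate support.

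From the deposited counts, filterByExpr kept 14085 of 52459 symbols. Genes were tested with edgeR 4.0.16 (TMM, robust quasi-likelihood F test, 1 fit of all 8 libraries, 4 residual degrees of freedom) in R 4.3.3, adjusted by Benjamini-Hochberg over all tested genes, with calls at 0.05. "Rose" and "fell" mark calls. Means are ± SD, and SE belongs to the log2 fold change. The fit was checked on simulated data. Levels near 30 counts or fewer carry wide counting error. Groups come from the treatment labels, and replicate numbers follow accession order. Libraries of 1 group differed beyond sampling noise (lowest chi-square per degree of freedom, 20.8). DESeq2 1.42.0 and limma 3.58.1 (voom) were alternatives. Gene positions come from GENCODE vM21.

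The factors and 16 lists of targets, other factors, paralogues and cell type markers were chosen with earlier results of these data known, so no list supports its own direction. Of each list, genes called in any of 6 comparisons were named, at most 4 by smallest p with the combination. The 5 genes nearest to Nkx2-1 needed a mean log2 CPM of at least 3 (prior count 2), without predicted genes.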

Additional observations from a re-analysis of the deposited data

How the results depend on the processing

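No paired analysis was possible because the replicate numbers follow accession order and only name the samples. Of 1070 values of the 10 factors under alternatives, 952 kept their direction and side of the threshold, 42 lost a call or its side, 38 gained one and 38 changed sign; 7 levels moved beyond 1 SD, under CPM scaled by total alone. The number of factors called changed with the filter on low counts and with the tool. For the combination against vehicle, 1 in the analysis reported, it was 6 without a filter on low counts, 6 with DESeq2 and 0 to 2 with single libraries left out. Against JQ1, where 0 were called, it was 2 without a filter and 1 with DESeq2. Against anti-PD-1, with 1 called, it was 5 without a filter, 5 with DESeq2 and 0 to 2 with libraries left out. It was 0 there with upper-quartile factors, a mean count of at least 50, a sex term, only the libraries compared, or protein-coding genes only. For JQ1 over both backgrounds, with 3 called, it was 6 without a filter, 6 with DESeq2 and 0 to 4 with libraries left out. For JQ1 against vehicle DESeq2 called 1 in place of 0. For any difference among groups it was 6 without a filter, 5 with DESeq2 and 0 to 1 with libraries left out. The cause of these shifts was not tested.

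Signs changed for uncalled factors. With a sex term the log2 fold change of anti-PD-1 was -0.17 for Cebpa and -0.88 for Foxp2, which was -0.32 with limma voom. That of Foxp1 was 0.013 with the combination and 0.022 over both backgrounds of JQ1, where it was 0.037 with upper-quartile factors and 0.066 at a mean count of at least 50. That of Foxp2 for the combination against JQ1 was -0.017 with upper-quartile factors, -0.060 without a filter and -0.0042 in only the libraries compared. With single libraries left out, JQ1 against vehicle ranged between -0.62 and 0.028 for Foxa2, -0.90 and 0.060 for Cebpa, -0.64 and 0.83 for Sox9, and -0.17 and 0.58 for Foxp1. Anti-PD-1 against vehicle ranged between -0.30 and 0.66 for Foxa1, -0.14 and 0.17 for Gata6, -0.22 and 0.57 for Cebpa, -0.16 and 0.92 for Sox9, -0.12 and 0.54 for Foxp1, -1.41 and 0.79 for Foxp2, and -0.15 and 0.093 for Grhl2. The combination against vehicle ranged between -0.45 and 0.20 for Foxp1. Against JQ1 it ranged between -0.67 and 0.0047 for Foxp1, -0.63 and 1.21 for Foxp2, -0.63 and 1.5 for Elf3, and -0.51 and 0.12 for Grhl2. JQ1 over both backgrounds ranged between -0.25 and 0.12 for Foxp1. Where 1 library is left in a group, it is assumed to vary like the other groups. Depth limits Sox9, Gata6 and Elf3 in combination replicate 1, with 21, 35 and 28 counts.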
